A study of Homo sapiens with 6 samples.

Results

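The D and E cyclins, the kinase CDK2 and 4 CDK inhibitors were followed in MDA-MB-231 cells, a line established from human triple-negative breast cancer, treated with mitocurcumin, a curcumin derivative targeted to mitochondria. The genes were CCND1, CCND2, CCND3, CCNE1, CCNE2, CDK2, CDKN1A, CDKN1B, CDKN2C and CDKN2D, chosen by symbol as regulators of the G1 to S transition. They are 10 of the 58656 gene rows of the table, and all 10 were among the 16481 genes tested. Polyadenylated RNA was sequenced from 3 libraries of cells given 5 µM mitocurcumin for 9 hours and from 3 control libraries given the DMSO vehicle for the same 9 hours. Replicates are labelled biological, but separate cultures are not stated, so p-values cover only the spread among these libraries, which may be technical. The line is derived from a single tumour and is known to carry a deletion of the CDKN2A and CDKN2B locus, which the control cells share.

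In G1, mitogens induce D cyclins, which activate CDK4 and CDK6 and start the phosphorylation of the retinoblastoma protein. Released E2F factors then drive transcription of the E cyclins, which activate CDK2 and commit the cell to DNA replication. Inhibitors of the INK4 family, to which the products of CDKN2C and CDKN2D belong, bind CDK4 and CDK6, whereas the CIP/KIP inhibitors encoded by CDKN1A and CDKN1B act mainly on CDK2 complexes. In breast cancer the axis is known for CCND1 amplification and for the use of CDK4 and CDK6 inhibitors.

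Totals ran from 23146822 to 29104681 estimated counts per library, and the lowest value of any of the 10 genes in any library was 209 counts. On the second principal component of log2 expression control replicate 1 lay at 31.3 and the other control libraries at -17.1 and -17.2, and on the fourth component mitocurcumin replicate 2 lay at -26.4, apart from the rest. The deposited heading of mitocurcumin replicate 2 also carries a sample number out of sequence with the others, and its meaning is not given. The line's markers VIM, CD44, AXL and EGFR were at 565 to 2337 CPM (counts scaled to a common library size) and KRT18 at 157 to 165 CPM in the group means, whereas SPARC, listed as a mesenchymal marker that the line should express, was near absent at 0.701 and 0.340 CPM. Of 5 genes listed as low or absent in the line, ESR1 and PGR had at most 9.16 counts in a library and CDH1 was at 1.68 and 2.43 CPM, but EPCAM was at 22.3 and 20.1 CPM and GATA3 fell from 13.7 to 9.25 CPM, both against that label. Of 7 markers of other cell types, CD3E, VWF and ALB had at most 4 counts in a library, and PTPRC was near 1 CPM. COL1A1, at 8.52 and 9.25 CPM, and PDGFRB, at 5.35 and 4.90 CPM, did not pass the test, and PECAM1 fell from 12.9 to 6.42 CPM. The summed level of the 7 was 25.8 to 31.7 CPM in control and 19.5 to 23.5 CPM in mitocurcumin libraries. The part of these markers in the results below was not tested.

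The comparison of mitocurcumin with vehicle asked how transcripts of the G1 to S machinery respond within 9 hours. The E cyclins CCNE2 and CCNE1 fell most, by 2.95-fold and 1.95-fold, and the INK4 inhibitor CDKN2C fell 1.83-fold. CCND2 rose 2.51-fold while the other D cyclins, CCND1 and CCND3, fell. CDKN1A, which encodes p21, rose 1.27-fold, CDK2 and CDKN2D fell 1.39-fold and 1.34-fold, and CDKN1B, which encodes p27, did not pass the test.

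At an adjusted p under 0.05 in edgeR's quasi-likelihood test, 2 of the 10 genes were higher and 7 lower, 90% in all. These genes were chosen with earlier results of these data known, so the comparison with all genes is only a description. Over all 16481 tested genes 32.5% passed, 14.7% higher and 17.8% lower. That share includes genes of low count, whereas all 10 genes had a mean of at least 5 CPM. Among the 11164 genes with such a mean, fitted alone, 2378 were higher and 2492 lower, a larger share. In that fit 3 of the 10 genes were higher and 7 lower. The median log2 change of the 10 genes was -0.48, and that of all tested genes was -0.01. A change of at least 2-fold that passed the test was seen in 2 of the 10, CCND2 and CCNE2, against 3.45% of tested genes. The control and mitocurcumin values did not overlap in any of the 10 genes, against 44.9% of tested genes. Since these are bulk samples, fewer cells in a given phase of the cycle and less RNA per cell cannot be told apart.

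**Figure D1:**
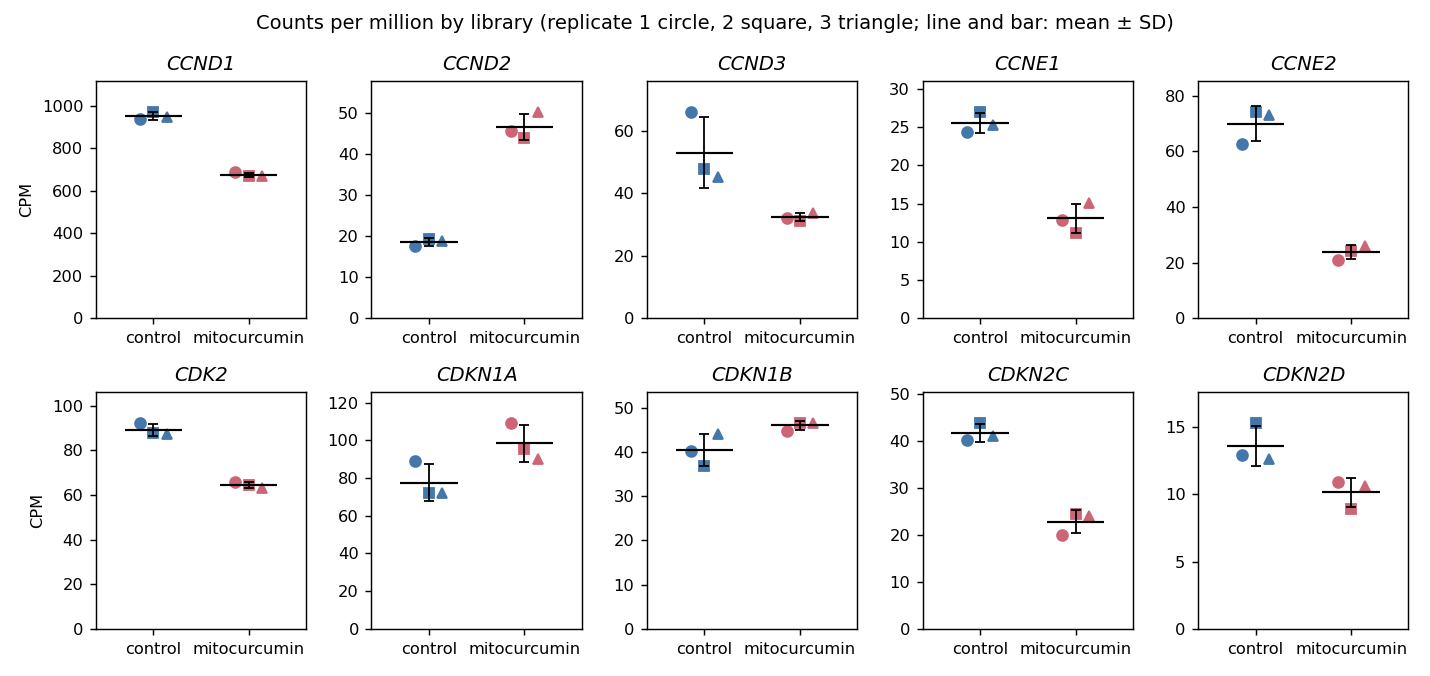
CPM of each gene in each of the 6 libraries (vertical axes start at 0), with the mean and SD of 3 libraries per group. CCND2 and the E cyclins differ most between groups by the fold of the means, and the control value of CCND3 that lies apart at 65.9 CPM is that of replicate 1.

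CCND1 encodes cyclin D1, the main D cyclin of breast epithelium (Entrez 595, chromosome 11, 69641156 to 69654474, GRCh38). Its level was 937, 972 and 949 CPM in the control libraries and 687, 671 and 668 CPM in the mitocurcumin libraries. All 3 treated values lay below all 3 control values, with little spread in either group. The change was -0.50 ± 0.05 on the log2 scale (fitted log2 fold change ± SE, 3 libraries against 3, edgeR adjusted p = 1.2e-06).

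CCND2 encodes cyclin D2, a paralog that binds the same kinases (Entrez 894, chromosome 12, 4273762 to 4305353). It had 17.5, 19.4 and 18.9 CPM in the control libraries and 45.8, 44.1 and 50.4 CPM after mitocurcumin. Every treated library stood far above every control library, and CCND2 was the member with the largest rise, at 1.33 ± 0.09 (edgeR adjusted p = 8.6e-09). Of all tested genes, 1.95% changed by more in either direction. Its antisense transcript row CCND2-AS1, which overlaps it by 2423 bp, averaged 1.33 counts in control and 6.93 counts in mitocurcumin libraries and was too low to test.

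CCND3 encodes cyclin D3, the third activator of CDK4 and CDK6 (Entrez 896, chromosome 6, 41934933 to 42048894). Its values were 65.9, 47.7 and 45.1 CPM in control and 32.2, 31.0 and 33.5 CPM in treated libraries. The groups did not overlap, and control replicate 1 was the highest library by a wide margin. The change was -0.71 ± 0.12 (edgeR adjusted p = 0.00023), and without control replicate 1 it was -0.52 with an adjusted p of 1.8e-06, within a range of 4.4e-08 to 0.0041 over 15 alternatives.

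CCNE1 encodes cyclin E1, an activating partner of CDK2 (Entrez 898, chromosome 19, 29811991 to 29824312). It was measured at 24.4, 27.0 and 25.3 CPM in control and at 12.9, 11.2 and 15.1 CPM in mitocurcumin libraries. The highest treated library was well below the lowest control library. CCNE1 changed by -0.97 ± 0.11 (edgeR adjusted p = 6.5e-06), and 4.70% of tested genes changed by more.

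CCNE2 encodes cyclin E2, the paralog of cyclin E1 (Entrez 9134, chromosome 8, 94880224 to 94895201). Control libraries held 62.6, 74.1 and 73.0 CPM and mitocurcumin libraries 21.1, 24.1 and 25.9 CPM. This was the widest separation among the genes that fell, at -1.56 ± 0.09 (edgeR adjusted p = 1.7e-09), and 1.08% of tested genes changed by more. CCNE2 overlaps INTS8, a subunit gene of the Integrator complex, by 1523 bp on the opposite strand, and INTS8 changed by -0.59 ± 0.07, from 83.7 to 55.8 CPM. The kit kept strand, but whether the counting used it is not given in the sources used here, so reads of the overlap may be shared.

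CDK2 encodes the kinase that the E cyclins activate (Entrez 1017, chromosome 12, 55966830 to 55972789). It was at 92.5, 88.0 and 87.5 CPM in control and at 65.7, 64.7 and 63.1 CPM after mitocurcumin. The values were tight within each group and did not overlap. CDK2 changed by -0.47 ± 0.06 (edgeR adjusted p = 1.3e-05).

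CDKN1A encodes p21, a CIP/KIP inhibitor that is induced by many stresses (Entrez 1026, chromosome 6, 36676463 to 36687332). It had 88.8, 71.9 and 71.8 CPM in control and 109, 95.5 and 90.1 CPM in mitocurcumin libraries. The lowest treated library exceeded the highest control library, replicate 1, by a narrow margin. CDKN1A rose by 0.34 ± 0.09 (edgeR adjusted p = 0.0069), and 34.5% of tested genes changed by more.

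CDKN1B encodes p27, the other CIP/KIP inhibitor measured (Entrez 1027, chromosome 12, 12717368 to 12722369). Its values were 40.3, 36.8 and 44.1 CPM in control and 44.8, 46.5 and 46.6 CPM in treated libraries. The groups came within 1 CPM of each other without overlapping. The difference of 0.19 ± 0.08 did not pass the test (edgeR adjusted p = 0.087), with adjusted p-values from 0.028 to 0.31 over 15 alternatives, and it passed in 2 of them. These were the fit without control replicate 3 (0.27, adjusted p = 0.028) and the fit to genes with a mean of at least 5 CPM (0.22, adjusted p = 0.043).

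CDKN2C encodes p18, an INK4 inhibitor of CDK4 and CDK6 (Entrez 1031, chromosome 1, 50968706 to 50974634). It stood at 40.2, 43.9 and 41.0 CPM in control and at 20.1, 24.4 and 24.0 CPM in treated libraries. Each treated library was far below each control library. CDKN2C changed by -0.87 ± 0.09 (edgeR adjusted p = 2.1e-06).

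CDKN2D encodes p19, a further INK4 inhibitor (Entrez 1032, chromosome 19, 10566460 to 10568979). Its CPM was the lowest of the 10 genes in both groups, with 12.9, 15.3 and 12.6 CPM in control and 10.9, 8.91 and 10.6 CPM after mitocurcumin. The groups did not overlap, with the highest control value in replicate 2 and the lowest treated value in replicate 2. CDKN2D changed by -0.42 ± 0.13 (edgeR adjusted p = 0.017). Its call was lost without control replicate 2 (-0.32, adjusted p = 0.096) and without mitocurcumin replicate 2 (-0.33, adjusted p = 0.11), within a range of 0.0036 to 0.11 over 15 alternatives.

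**Figure D2:**
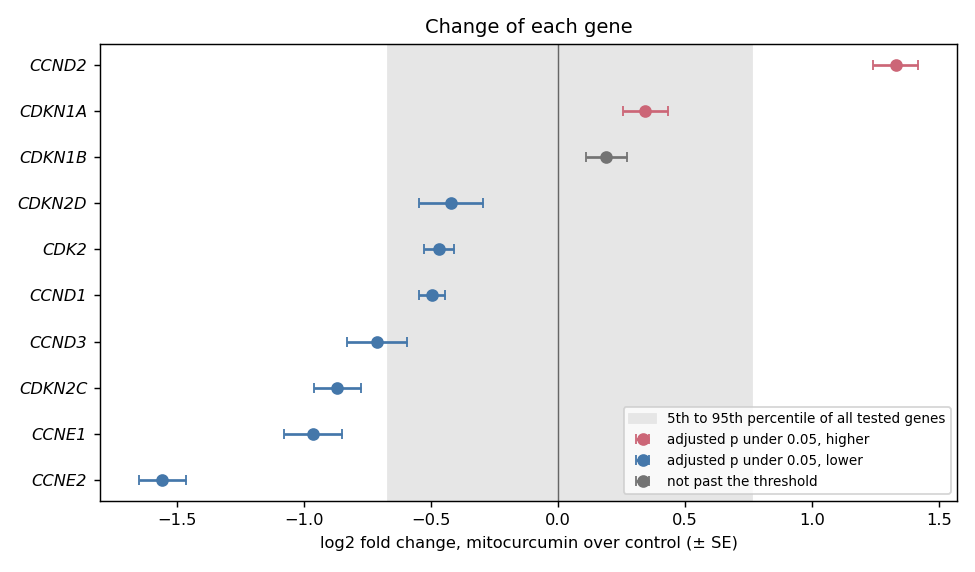
Log2 fold change of each gene with its SE (horizontal axis), set on a grey band from the 5th to the 95th percentile of all tested genes. CCND2 lies above the band, CCND3, CDKN2C, CCNE1 and CCNE2 lie below it, and the other 5 genes lie within it.

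Promoter windows were available for 6 of the 10 genes (RefSeq, GRCh38.p14), 250 bases before to 50 bases after an annotated start, in 10 windows. No window was available for CCND1, CCND2, CCNE2 or CDK2. The windows are shown because the E cyclins and CDKN2C, which are commonly described as E2F-regulated, fell together. Of the E cyclins only CCNE1 could be searched. The E2F-type words searched on both strands were TTTCCCGC, TTTGGCGC, TTTGCCGC, TTTCGCGC, TTCCCGCC and TTGGCGCC, the last 2 added after the first 4 gave 0 matches. They may overlap one another. A match stood in 1 of the 10 windows, that of CDKN2C at the start used in the table, and in 6.26% of the 35116 windows of all genes. The first 4 words alone stood in 3.31% of all windows. With 10 windows, 1 match after widening the words cannot be told apart from these shares. Whether E2F factors act on these genes here was not tested. The match, in capitals, reads GGCGGGAA on the printed strand and begins at -132 from the start. The MYC-type word CACGTG stood in 2 of the 10 windows, both at other starts of CDKN2C, and in 7.26% of all windows. A match is only a run of letters, and its absence says only that these letters are not in the window. The CDKN1A window lies at an annotated start downstream of the gene start given above, 36676463. The windows of CDKN2C (chr1:50968456-50968755, plus strand), of CCNE1, which fell (chr19:29811741-29812040, plus strand), and of CDKN1A, which rose (chr6:36678464-36678763, plus strand), read as follows.
CDKN2C: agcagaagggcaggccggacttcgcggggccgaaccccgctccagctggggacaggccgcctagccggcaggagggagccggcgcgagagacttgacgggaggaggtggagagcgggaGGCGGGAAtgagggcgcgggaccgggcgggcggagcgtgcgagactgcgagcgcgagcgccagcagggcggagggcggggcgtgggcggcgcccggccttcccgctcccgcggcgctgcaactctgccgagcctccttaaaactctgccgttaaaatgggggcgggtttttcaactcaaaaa
CCNE1: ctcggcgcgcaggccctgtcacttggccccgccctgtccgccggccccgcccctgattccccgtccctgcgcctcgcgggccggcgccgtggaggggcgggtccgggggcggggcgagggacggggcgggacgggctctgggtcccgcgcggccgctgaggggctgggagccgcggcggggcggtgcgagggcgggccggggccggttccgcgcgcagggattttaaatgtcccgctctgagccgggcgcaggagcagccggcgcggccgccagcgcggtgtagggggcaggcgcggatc
CDKN1A: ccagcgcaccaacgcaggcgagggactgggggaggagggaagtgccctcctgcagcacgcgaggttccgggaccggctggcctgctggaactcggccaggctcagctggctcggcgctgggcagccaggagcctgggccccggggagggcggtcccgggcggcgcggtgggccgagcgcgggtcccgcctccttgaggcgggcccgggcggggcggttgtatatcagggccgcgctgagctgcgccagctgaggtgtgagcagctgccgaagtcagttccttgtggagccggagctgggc

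Levels were compared between genes as CPM per kb, with the length taken as the union of exons in GENCODE 29, which need not be the isoforms these cells use. In control cells CCND1 was highest at 216 ± 4.0 CPM per kb (SD, n = 3), followed by CDK2 at 36.6 ± 1.12, CDKN1A at 30.9 ± 3.89 and CCNE2 at 20.4 ± 1.85. CDKN1B, CCND3, CDKN2C and CCNE1 followed at 15.2, 13.4, 12.6 and 12.3 CPM per kb, and neighbours in this stretch overlapped between libraries. CDKN2D at 9.05 ± 0.986 and CCND2 at 2.87 ± 0.146 were lowest, and each was separate from the gene above it.

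After mitocurcumin the order changed. CCND1 remained highest at 153 ± 2.33 CPM per kb, CDKN1A at 39.2 ± 3.96 stood above CDK2 at 26.4 ± 0.517, and CDKN1B followed at 17.3 ± 0.376. CCND3 at 8.18 ± 0.323 was separate from CCND2 at 7.21 ± 0.503. From CCND2 downward CCNE2, CDKN2C, CDKN2D and CCNE1, at 6.90, 6.88, 6.75 and 6.28 CPM per kb, each overlapped the next and could not be ordered beyond their spread. CCND2 thus moved from the lowest place into a group of 5 genes with overlapping levels.

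**Figure D3:**
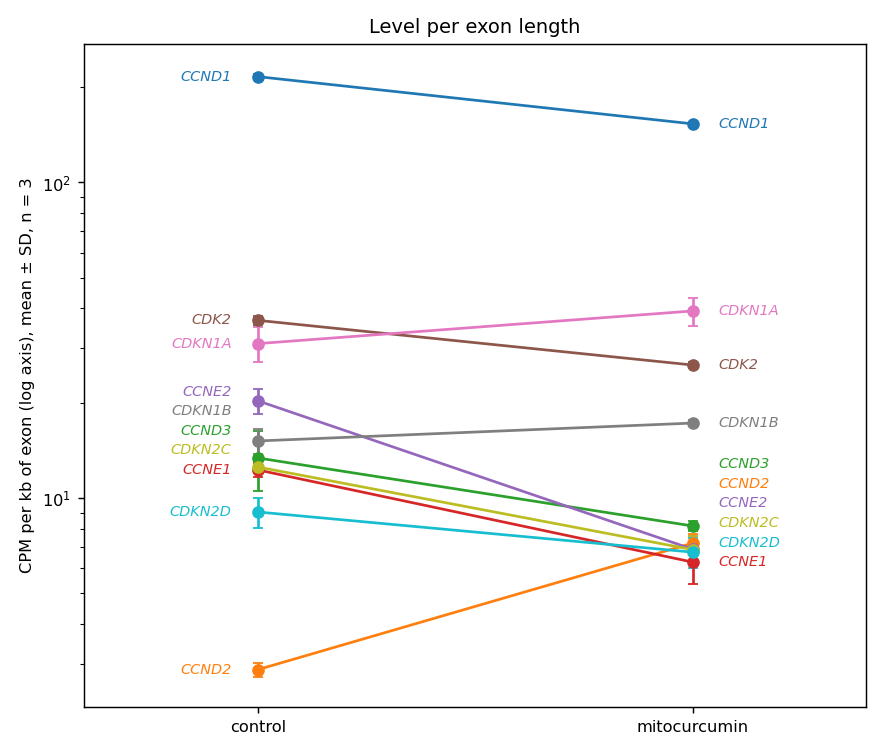
Level of each gene in CPM per kb of exon on a log axis, as mean ± SD of 3 libraries, joined between control and mitocurcumin. CDKN1A and CDK2 exchange places, and CCND2 rises from 2.87 to 7.21 CPM per kb while CCNE1, CCNE2, CDKN2C and CDKN2D come to lie beside it.

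Within the D cyclins, the share of CCND2 in their summed CPM per kb went from 1.23% ± 0.0587 to 4.28% ± 0.308 (SD, n = 3), and CCND1 made up 93.0% ± 1.18 in control and 90.9% ± 0.50 in treated cells. The sum itself went from 233 ± 2.99 to 169 ± 2.21 CPM per kb, so the rise of CCND2 was smaller in level than the fall of CCND1. The summed level of the E cyclins was 30.0, 34.6 and 33.4 CPM per kb in control and 12.3, 12.4 and 14.8 in mitocurcumin libraries. That of the CIP/KIP inhibitors CDKN1A and CDKN1B was 50.5, 42.5 and 45.2 CPM per kb in control and 60.5, 55.6 and 53.5 in mitocurcumin libraries. The E cyclin sum was 0.716 ± 0.112 of the CIP/KIP sum in control and 0.235 ± 0.0378 in treated cells. These sums were formed after the values had been seen and carry no test, and they describe mRNA, not protein.

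Ratios of 2 genes within a library do not depend on scaling between libraries, and 5 were compared by a two-sided exact permutation test, for which 3 libraries against 3 cannot give a p under 0.1. The log2 ratio of CCND2 to CCND1 was -5.74, -5.65 and -5.65 in control and -3.91, -3.93 and -3.73 in mitocurcumin libraries. All treated ratios were above all control ratios, by 1.82 on average, or 3.54-fold (exact permutation p = 0.1, adjusted p = 0.125 over the 5 ratios). The ratio of CCND2 to CCND3 counts was -1.91, -1.30 and -1.26 in control, that is, fewer counts of CCND2, and 0.508, 0.508 and 0.587 after mitocurcumin, with more counts of CCND2 in every treated library. The mean difference was 2.02 (exact permutation p = 0.1, adjusted p = 0.125). Count ratios are not corrected for gene length, so their sign does not order the levels of the genes. Per kb of exon, CCND3 at 8.18 CPM stayed above CCND2 at 7.21 CPM in treated cells, without overlap of libraries.

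The remaining ratios compared paralogs within a class. The log2 ratio of CCNE2 to CCNE1 was 1.36, 1.46 and 1.53 in control and 0.711, 1.10 and 0.776 in treated libraries, a difference of -0.58 without overlap (exact permutation p = 0.1, adjusted p = 0.125). That of CDKN2C to CDKN2D was 1.64, 1.52 and 1.70 in control and 0.876, 1.45 and 1.17 in treated libraries, a difference of -0.45, with mitocurcumin replicate 2 close to the control values (exact permutation p = 0.1, adjusted p = 0.125). The ratio of CDKN1A to CDKN1B overlapped between groups, with a difference of 0.15 (exact permutation p = 0.5, adjusted p = 0.5). At this number of libraries none of the 5 tests could pass a threshold of 0.05, so the separation of the values is a description.

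**Figure D4:**
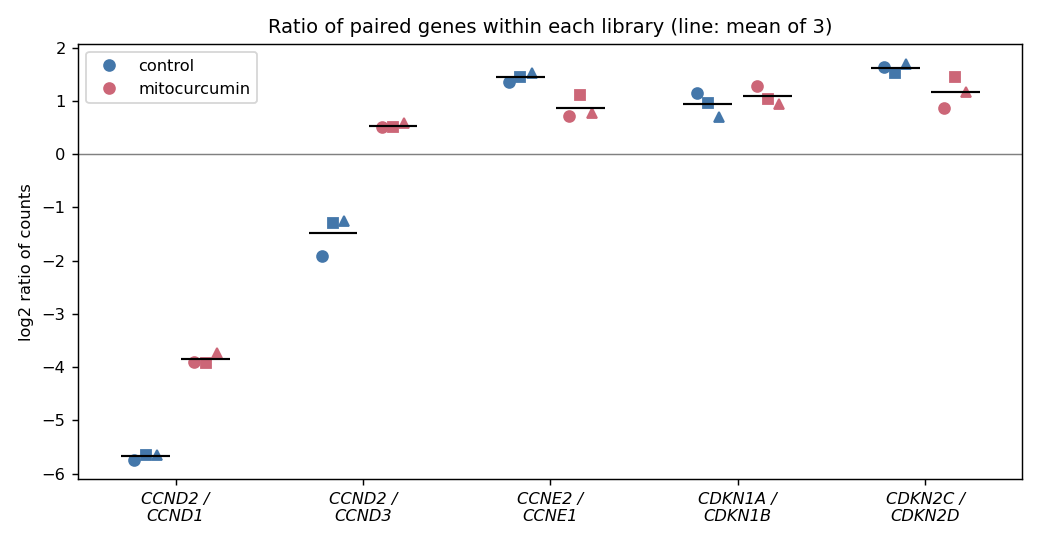
Log2 ratio of the counts of 2 genes within each library (vertical axis), with the mean of 3 libraries as a line. Control and mitocurcumin libraries are separate in 4 of the 5 ratios, and overlap for CDKN1A over CDKN1B.

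For CCND2 and CCNE2, the members that rose and fell most, the most similar patterns were sought among 11164 genes with a mean of at least 5 CPM, by the root-mean-square difference of centred log2 CPM over the 6 libraries. Nearest to CCND2 were LRRC49, at 0.0169, MIR100HG, the host gene of a microRNA cluster, at 0.0299, and MAP1LC3B, an autophagosome membrane gene, at 0.0519. These changed by 1.33 ± 0.10, 1.29 ± 0.07 and 1.25 ± 0.05. Nearest to CCNE2 were ISM1 at 0.10, the long noncoding RNA MANCR at 0.121 and NOG, which encodes the BMP antagonist noggin, at 0.133. Their changes were -1.59 ± 0.14, -1.51 ± 0.09 and -1.33 ± 0.12. Since these genes were picked by their pattern over the same libraries, changes close to those of CCND2 and CCNE2 follow from the choice.

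The rest of the G1 to S pathway was read from 7 lists with 49 genes, of which 47 were tested, 13 were higher and 18 lower, with a median change of -0.01. Over all tested genes 32.5% passed, 14.7% higher and 17.8% lower, and the counts of each list are to be read beside these shares. CDK4 and CDK6, the partners of the D cyclins, did not pass the test, at 0.17 ± 0.08 and 0.05 ± 0.05 (edgeR adjusted p = 0.11 and 0.52). Among the 5 other CDKs and cyclins, the mitotic kinase CDK1 and its partner CCNA2 fell by 0.45 and 0.43 on the log2 scale, and CCNA1, at 2.15 and 3.51 CPM, rose by 0.70 ± 0.23. Of the CDK-activating kinase, CDK7 rose by 0.32 ± 0.07 and CCNH and MNAT1 did not pass.

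Other CDK inhibitors were scarce. CDKN2A and CDKN2B, which encode p16 and p15, had 0 counts in all 6 libraries, which allows at most 0.103 to 0.130 CPM per library by counting error alone (3 counts of the total). CDKN1C, which encodes p57, was at 1.49 ± 0.447 and 2.03 ± 0.698 CPM and did not pass. The INK4 transcripts measured in these cells were those of CDKN2C and CDKN2D, and both fell.

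Enzymes that set CDK phosphorylation had 0 higher and 4 lower of 5. CDC25A, the phosphatase that activates CDK2, went from 53.2 ± 3.56 to 30.1 ± 0.427 CPM, a change of -0.82 ± 0.08 (edgeR adjusted p = 5.8e-07). The inhibitory kinase PKMYT1 changed by -0.63 ± 0.16, the phosphatase CDC25C by -0.32 ± 0.11 and the inhibitory kinase WEE1 by -0.16 ± 0.06.

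Pocket proteins and E2F factors had 3 higher and 7 lower of 13. Of the activator E2F genes, E2F1 and E2F2 fell from 46.7 ± 5.97 to 29.8 ± 2.96 CPM and from 7.52 ± 1.10 to 3.07 ± 0.149 CPM, changes of -0.65 ± 0.10 and -1.29 ± 0.17. E2F3, the most abundant of these activators at 116 and 107 CPM, did not pass, at -0.12 ± 0.06 (edgeR adjusted p = 0.16). The atypical repressors went apart, E2F8 falling by 1.07 on the log2 scale and E2F7 rising by 0.53 ± 0.05, from 214 ± 8.49 to 308 ± 12.2 CPM (edgeR adjusted p = 1.4e-06). RBL1, the pocket protein p107, changed by -0.57 ± 0.06 and RB1 by -0.26 ± 0.05, and the other higher members were E2F5 and E2F6, at 0.37 ± 0.10 and 0.33 ± 0.09.

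Ubiquitin ligase genes that act on cyclins and inhibitors had 4 higher and 3 lower of 11. SKP2, which targets p27 for degradation, went from 53.3 ± 1.74 to 27.2 ± 1.14 CPM, a change of -0.97 ± 0.08 (edgeR adjusted p = 6.8e-08). DTL, the substrate receptor for p21 in S phase, changed by -0.56 ± 0.06 and the scaffold CUL1 by -0.15 ± 0.05. FBXW7, which targets cyclin E, rose by 0.30 ± 0.08. AMBRA1 and FBXO31, both linked to cyclin D degradation, rose by 0.26 ± 0.09 and 0.44 ± 0.12, and CUL4A by 0.26 ± 0.05.

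Of 9 transcription factors known to act on these genes, 4 were higher and 2 lower. KLF4, an activator of CDKN1A, rose from 37.3 ± 2.35 to 69.5 ± 4.98 CPM, by 0.90 ± 0.08, and MYC from 109 ± 10.7 to 165 ± 14.5 CPM, by 0.61 ± 0.08. FOXO3 and FOXO4, of a family that activates CDKN1B, rose by 0.41 ± 0.06 and 0.44 ± 0.16, and their relative FOXO1 did not pass, at -0.05 ± 0.14. FOXM1, a driver of mitotic genes, changed by -0.47 ± 0.06 and ZBTB17, the MYC partner MIZ1, by -0.37 ± 0.12.

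**Figure D5:**
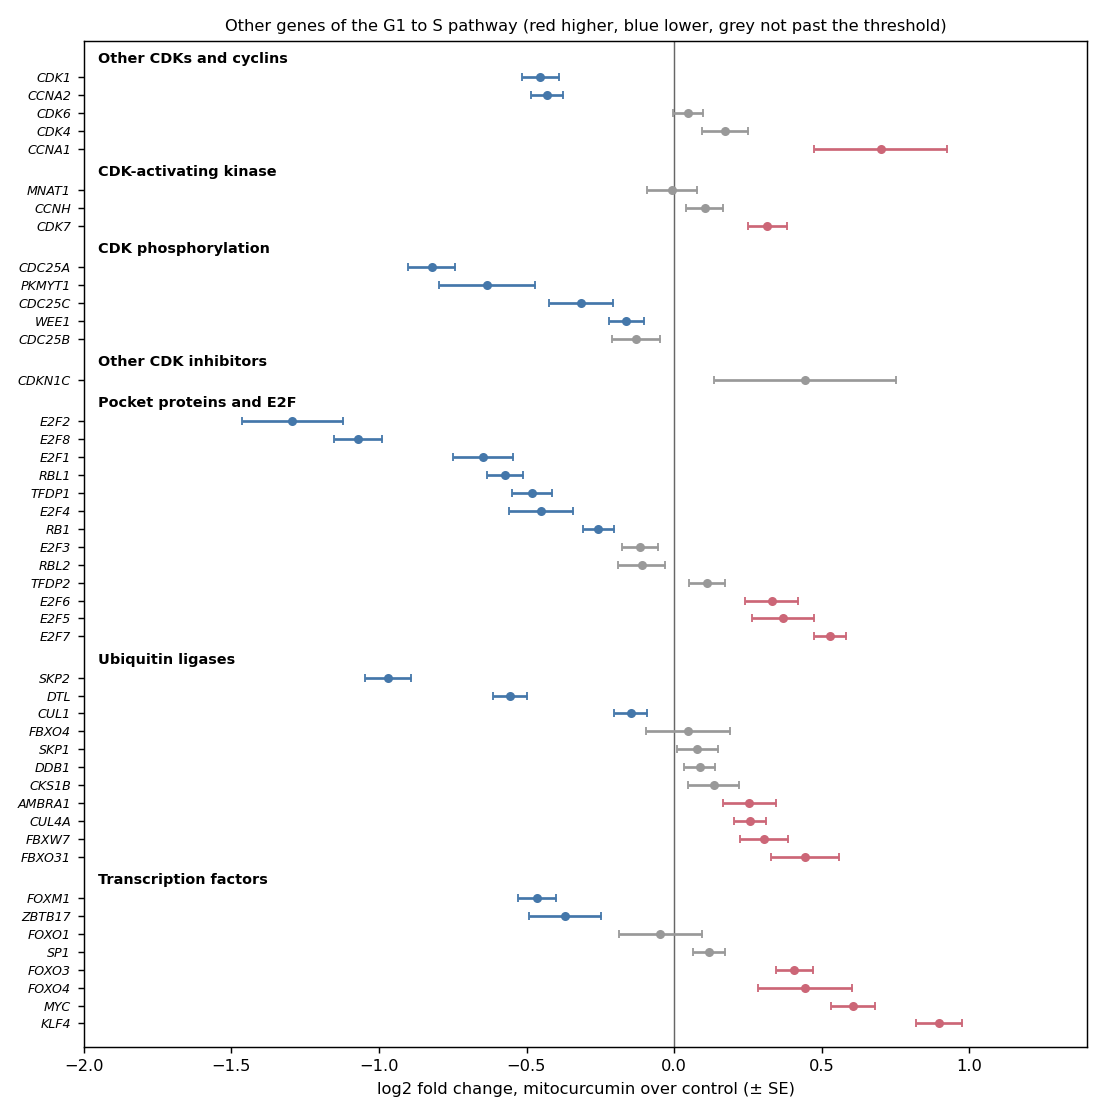
Log2 fold change with SE (horizontal axis) of 46 of the 47 tested genes of the G1 to S lists, by list. E2F2, E2F8, SKP2 and CDC25A lie farthest to the left and KLF4, CCNA1 and MYC farthest to the right.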

How the data were processed

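RNA sequencing of 6 MDA-MB-231 libraries was analysed, 3 per group. Per the labels' protocols, libraries were stranded and made from poly(A)-selected RNA. Per the submitters' processing notes the genome was GRCh38, and per the file headers the gene model was RefSeq. Aligner, counter and scaling method are not given in the sources used here. Raw values as deposited are estimated counts, read from the values, since most were not whole. The deposited normalized values are on a log2 scale, each library's raw values having been divided by a single factor.

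Estimated counts were rounded, where the design had assumed whole counts, filtered with filterByExpr (minimum count 10, minimum total 15) and tested with edgeR 4.0.16 in R 4.3.3 (quasi-likelihood, robust, TMM), with the group as the only term and Benjamini-Hochberg adjustment over 16481 genes at 0.05. SE is the log2 fold change divided by the square root of F. CPM uses TMM-scaled totals and is given as mean ± SD; floors and marker sums use unscaled library totals. Ratios used a pseudocount of 0.5 counts. Alternatives covered scaling, filters, DESeq2 1.42.0, limma 3.58.1 (voom, and on the deposited values), a replicate term, each library left out, and a threshold of 0.01.

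The genes and lists were chosen with earlier results of these data known. Named genes were all 10 members, up to 4 called genes with the largest change per list, every gene of a called direction with 5 or fewer, genes at 0, overlapping genes and the 3 nearest patterns. RB1, E2F3, FOXO1, CDK4, CDK6, CDKN1C, CCNH, MNAT1 and the markers, which did not come from that rule, were named after their values were seen. The lists' counts include 1 gene that is not reported here.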

Additional observations from a re-analysis of the deposited data

How the results depend on the processing

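Over 15 other fits per gene and a threshold of 0.01, the 10 genes kept their direction, and 8 kept their side of the threshold in every one. CDKN1B was past the threshold among genes with a mean of at least 5 CPM (0.22), and its change ran from 0.13 to 0.27 with a library left out. CDKN2D (-0.42) was not past a threshold of 0.01, and ran from -0.46 to -0.32 with a library left out. With a library left out, 2 to 3 of the 10 were higher and 6 to 7 lower. No pairing of the libraries by replicate number was seen, which does not exclude one. Deviations of same-numbered libraries correlated at 0.10, 0.02 and -0.01, and 2 of 6 libraries correlated best with their own number. A replicate block gave 2643 higher and 3163 lower genes, against 2425 and 2938, and 2 higher and 7 lower among the 10 genes. The direction of the 5 ratios did not change with a pseudocount of 5 counts, on the deposited log2 values or with a library left out, but the difference of 0.15 for CDKN1A over CDKN1B was 0.04 without control replicate 3 and 0.06 without mitocurcumin replicate 1. The median change of all tested genes moved to at most 0.02 under other scalings. All 10 genes had 209 or more counts per library, and the parts of depth and of library spread in their error were not separated.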

Other observations

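Cyclin and CDK genes outside these lists were collected by symbol and description after the data had been seen. Of 35 tested, 8 were higher and 6 lower, with a median log2 change of -0.01. Over all tested genes 14.7% were higher and 17.8% lower. CCNG2, an atypical cyclin linked to cell cycle arrest, had the largest rise, from 65.1 ± 1.23 to 104 ± 2.57 CPM (SD, n = 3), by 0.68 ± 0.06 (edgeR adjusted p = 1.6e-07). Its paralog CCNG1 rose by 0.32 ± 0.07. CCNT1 and CCNT2, partners of the elongation kinase CDK9, rose by 0.30 ± 0.06 and 0.28 ± 0.06, while CDK9 changed by -0.40 ± 0.10 (edgeR adjusted p = 0.0042). CDK12, another kinase of RNA polymerase II, rose by 0.22 ± 0.06, and CCNJL, CCNI and CCNY by 0.31, 0.22 and 0.22. The mitotic cyclins CCNB1 and CCNB2 changed by -0.49 ± 0.05 and -0.29 ± 0.07, CCNF, a ligase subunit of late cell cycle, by -0.52 ± 0.10, and CDK10 and CDK14 by -0.52 ± 0.13 and -0.45 ± 0.11.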
